A study of Mus musculus with 16 samples.

Results

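Mouse hepatocytes grown together with Phgdh knockout cancer cells were compared with the same hepatocytes grown without cancer cells. The comparison takes 3 libraries against 3, chosen by their sample labels, out of 16 libraries in the series, and it covers all 54532 genes of the deposited table. In the labels the 3 control libraries are hepatocytes only. The 3 co-culture libraries are hepatocytes kept with cancer cells that lack Phgdh, and a further 3 libraries, used below for reference, come from hepatocytes kept with cancer cells of wild-type Phgdh. The remaining libraries are co-cultures of both kinds given a CXCR2 inhibitor. They are not described here, but they entered the expression filter and the spread behind each p-value. The knockout was thus made in the cancer cells, no change of genotype is given for the hepatocytes, and the hepatocytes are labelled as a cell line. The series concerns liver metastasis of pancreatic cancer and serine. Its design text names HY19636 as the cancer cells and speaks of those cells as the sequenced material, whereas every sample label names hepatocytes as the source, and the labels were followed here. The sources used here state no cell numbers, culture time, culture format, number of knockout clones or batches. Separate cultures are not stated for the replicates, and a p-value therefore reflects the spread of these libraries alone, which may be technical.

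Phgdh encodes phosphoglycerate dehydrogenase, the first enzyme of serine synthesis from a glycolytic intermediate, and cells that lack it depend on serine from outside. Hepatocytes make most plasma proteins, and their endoplasmic reticulum adjusts its folding capacity through the unfolded protein response, while shortage of amino acids or stress of that organelle raises the transcription factor ATF4, which drives amino acid uptake and synthesis. Hepatocytes also take part in inflammation, through NF-kB, chemokines and acute phase proteins, and in culture many of them spread on actin fibres and enter the cell cycle.

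Recovered fragments numbered 16395464 to 21024508 in hepatocytes alone and 18110752 to 21188992 in the knockout co-culture. A fragment in a gene of 1 kilobase was worth 0.0474 to 0.0627 FPKM, the deposited unit (fragments scaled by gene length and library depth). In a principal component analysis of the 6 libraries, the first component held 85.5% of the variance, with hepatocytes alone at -34.4 to -33.2 and the co-culture at 33.3 to 34.5. The summed level of 16 hepatocyte markers was 318 to 321 FPKM alone and 200 to 215 FPKM in co-culture, with Alb, Ttr, Hnf4a and Apob read in every library and Cyp2e1, Cyp3a11 and G6pc at or near 0. In each library alone 11 of the 16 were at 1 FPKM or more, and in co-culture 9 or 10 were. Secretory members were not all high, with Apoa1 at means of 3.12 FPKM alone and 0.597 FPKM in co-culture. Markers of pancreatic cancer epithelium summed to 1310 to 1410 FPKM alone and 724 to 834 FPKM in co-culture, carried by S100a6, Msln and Krt19. Of its 16 markers, 7 were at 1 FPKM or more in each library alone and 6 in each co-culture library. The markers did not all follow the sum. By the test described below, 6 of the 7 tested were lower in co-culture and 1 was higher, where 61.5% of all tested genes changed. Muc5ac, Tff1, Tff2, Ptf1a and Agr2 were at or near 0 in both groups. The same held for the stellate cell markers Col1a1, Pdgfrb and Lrat and the Kupffer cell markers Adgre1 and Clec4f. It also held for the endothelial markers Cdh5 and Stab2 and the neutrophil markers S100a8 and Ly6g. Over all markers listed, Kupffer cell sums reached 1.45 FPKM and endothelial sums 1.28 FPKM in hepatocytes alone. In co-culture they reached 1.32 and 1.07 FPKM. Whether cancer cells were among the sequenced cells was not tested.

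The presence of knockout cancer cells went with a change in most measured genes. Of 11395 genes tested (those averaging at least 1 FPKM across the 16 libraries), 7011 differed from hepatocytes alone at an adjusted p under 0.05, which is 61.5%. Of these, 3457 were higher (30.3% of the genes tested) and 3554 lower (31.2%). The counts for gene lists below are to be read beside these shares. Every adjusted p-value comes from limma, adjusted by the Benjamini-Hochberg method across the whole set of tested genes, and fold changes are on the scale of log2(FPKM + 1), which understates the change of low genes. Most changes were small, with a median of 0.43 on that scale irrespective of sign. Those of at least 2-fold were more often falls, with 270 genes higher (2.37%) and 708 lower (6.21%), and the same held for at least 4-fold (39 higher, 172 lower) and at least 8-fold (8 higher, 29 lower). The share of higher genes among those changed was 49.3% as deposited, 56.2% after quantile normalization and 55.3% after scaling without mitochondrial and the 50 most abundant genes, so neither direction led under every scaling. The 3 and 3 libraries did not overlap for 7648 tested genes, or 67.1%. In bulk RNA, fewer cells of a type and less RNA per cell cannot be told apart, which touches every result that follows.

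**Figure D1:**
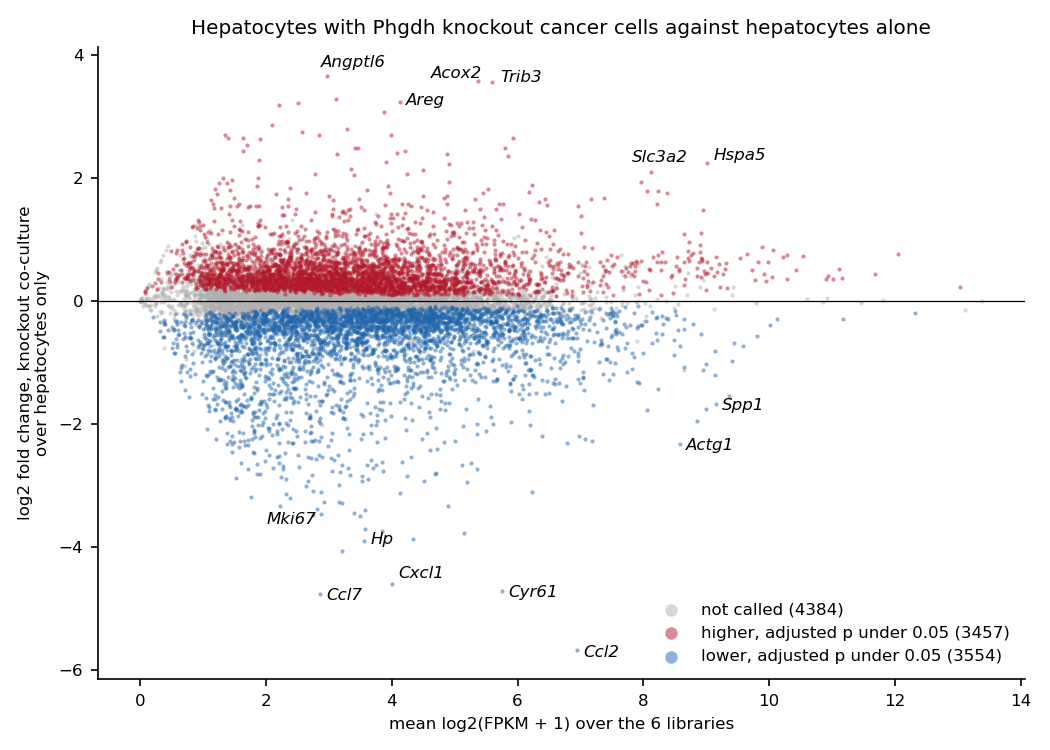
Each point is 1 of 11395 tested genes, with its mean log2(FPKM + 1) over the 6 libraries on the x axis and its log2 fold change (knockout co-culture over hepatocytes only) on the y axis, in red where higher (3457), blue where lower (3554) and grey where not called. The chemokine Ccl2 lies lowest at -5.68, and Angptl6, Acox2 and Trib3 lie highest, between 3.55 and 3.66.

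Genes that serve protein folding in the endoplasmic reticulum rose together. All 33 tested chaperones, disulfide isomerases and degradation factors of that compartment were higher, 21 of them at least 2-fold, with a median log2 fold change of 1.47 against 0.01 over all genes tested. Hspa5, which encodes the chief chaperone BiP, was read at 241, 232 and 234 FPKM in hepatocytes alone and at 1120, 1110 and 1130 FPKM in co-culture (log2 fold change 2.24 ± 0.04 SE, adjusted p = 5.98e-15). Its groups were far apart, and no library stood out in either. Sdf2l1, a partner of BiP's cochaperones, had 23.5, 24.1 and 22.6 FPKM alone and 149, 163 and 145 FPKM in co-culture (2.65 ± 0.08, adjusted p = 1.24e-12). Creld2, a secreted product of the same stress, went from 22.5, 22.9 and 22 FPKM to 128, 138 and 128 FPKM (2.49 ± 0.1, adjusted p = 1.24e-11). The chaperone Hyou1 went from 24.9, 24.3 and 24.2 FPKM to 124, 134 and 129 FPKM (2.35 ± 0.04, adjusted p = 2.27e-15). In all 3 genes the mean was between 5.27- and 6.52-fold higher and no libraries overlapped. The abundant chaperone Hsp90b1 (1.79) and the isomerase Pdia4 (1.78) were also among the largest rises of the 200 most abundant genes. The smallest rise in the list was that of the reductase Dnajc10, from 57.1 to 71.7 FPKM (0.32).

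The ER stress element (CCAAT, 9 bases, CCACG) was searched on both strands of the 250 bases before the RefSeq gene starts. It was found at 8 of the 26 members with a promoter sequence, or 30.8%, against 12 of 8319 tested genes (0.144%) and 0.113% of 32851 RefSeq promoters. The 8 are Hspa5, Hsp90b1, Calr, Canx, Pdia6, Dnajc3, Creld2 and Syvn1, and Creld2 had the largest rise of them. The shorter element TGACGTGG was found at 0 of the 26 members and at 0.902% of tested genes. A stretch of the Creld2 promoter (RefSeq, GRCm38.p6, chr15:88819500-88819619, plus strand) is given to show the element, in capitals and in the reverse orientation.

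Creld2: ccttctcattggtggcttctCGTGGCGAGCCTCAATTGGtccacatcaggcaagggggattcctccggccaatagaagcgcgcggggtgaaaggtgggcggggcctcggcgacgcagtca

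Targets of ATF4 and the integrated stress response formed the other group of large rises. Of 25 tested members, 19 were higher, 3 lower and 3 did not pass, with a median log2 fold change of 1.34. Trib3, a pseudokinase that ATF4 induces, had 14.3, 13.1 and 12.3 FPKM alone and 156, 177 and 163 FPKM in co-culture (3.55 ± 0.08, adjusted p = 3.69e-14). The mean was 12.5-fold higher, and the groups did not overlap. Ddit3, which encodes the stress factor CHOP, went from 14.2, 11.3 and 13.4 FPKM to 64.4, 67.5 and 60.9 FPKM (2.23 ± 0.07, adjusted p = 2.78e-12). It overlaps Mars, whose own change was -0.01. The mitochondrial folate enzyme gene Aldh1l2 went from 0.617, 0.443 and 0.717 FPKM to 10.3, 10.5 and 10.6 FPKM (2.86 ± 0.06, adjusted p = 2.59e-14), and Cth, an enzyme that makes cysteine from cystathionine, rose by 2.41. Ddit4, a suppressor of mTORC1 signalling, fell by 0.73 against the direction of the list, and Atf3 (31.5 and 32.8 FPKM) and the stress cytokine gene Gdf15 (26.3 and 22.5 FPKM) did not pass. The fall of Cebpb (-0.31) was lost when hepatocytes-only replicate 1 (adjusted p = 0.177) or 3 (0.057), or knockout replicate 1 (0.142) or 3 (0.0791), was left out. The 3 falls of the list became 1 after quantile normalization or scaling without mitochondrial and the 50 most abundant genes. Fgf21 was not tested, at 0.0514 FPKM alone and 0 in co-culture.

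Whole gene families of amino acid supply, which hold ATF4 targets beside other genes, moved unevenly. Of 19 tested amino acid transporters, 11 were higher, 4 lower and 4 did not pass (median 0.29). Slc3a2, the heavy chain shared by several exchangers, had 137, 130 and 134 FPKM alone and 568, 599 and 556 FPKM in co-culture (2.1 ± 0.06, adjusted p = 7.93e-13). Slc1a4, which carries serine and alanine, had 7.44, 6.26 and 7.39 FPKM alone and 43.2, 40.9 and 42.5 FPKM in co-culture (2.43 ± 0.06, adjusted p = 7.02e-14). Both were separated without overlap. The cationic carrier gene Slc7a3 (2.63) and the glycine carrier gene Slc6a9 (1.83) also rose, and the taurine carrier gene Slc6a6 fell by 1.5. Of 20 cytosolic aminoacyl-tRNA synthetases, 13 were higher, 1 lower and 6 did not pass (median 0.33). Wars, for tryptophan, stood apart with 23.4, 24.1 and 23.7 FPKM alone and 83.3, 86.4 and 88.3 FPKM in co-culture (1.82 ± 0.04, adjusted p = 2.94e-14), and the next largest rise was that of Sars, for serine (0.92). The single fall was that of Hars (-0.29), which overlaps Hars2 (0.28). Among 16 enzymes of proline, asparagine and glutamine metabolism, 8 rose and 7 fell, the proline enzyme genes Pycr1 (2.15) and Aldh18a1 (1.65) upward and the glutamate dehydrogenase gene Glud1 (-1.23) downward.

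The composite element that ATF4 binds with C/EBP partners (TGATGNAA, both strands) was found in the promoter windows of 7 of 22 members of the ATF4 list (31.8%) and of 3 of 12 tRNA synthetases (25%), against 2.28% of tested genes and 3.45% of promoters. The members are Atf3, Chac1, Asns, Nupr1, Vldlr, Slc7a11 and Pck2, and among the synthetases Aars, Gars and Tars. Vldlr (1.75) and Aars (0.6) rose most among the members that hold it, and their stretches are given because the capitals show the same 8 letters at both (GRCm38.p6, chr19:27216800-27216919 and chr8:111033710-111033829, plus strand).

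Vldlr: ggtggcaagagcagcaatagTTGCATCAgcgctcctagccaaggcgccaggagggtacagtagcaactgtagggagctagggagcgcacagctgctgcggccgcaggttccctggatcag

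Aars: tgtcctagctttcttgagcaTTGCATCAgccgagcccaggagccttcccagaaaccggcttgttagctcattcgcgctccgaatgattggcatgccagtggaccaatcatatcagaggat

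Serine synthesis, the pathway whose first enzyme gene was knocked out in the cancer cells, did not move in 1 direction in the hepatocytes. Phgdh (chromosome 3, 98313170 to 98339990, GRCm38) was read at 207, 207 and 203 FPKM in hepatocytes alone and at 193, 201 and 197 FPKM in co-culture (-0.06 ± 0.04, adjusted p = 0.154). Since the labels place the knockout in the cancer cells, its level in hepatocytes does not check them. Psat1, the transaminase of the next step, went from 154, 147 and 156 FPKM to 118, 116 and 117 FPKM (-0.38 ± 0.05, adjusted p = 8.85e-06), with no overlap. Psph, the phosphatase of the last step, went from 9.72, 9.76 and 8.03 FPKM to 24.6, 25.2 and 24.6 FPKM (1.35 ± 0.06, adjusted p = 1.07e-10), also with no overlap. Psph overlaps Cct6a, whose own change was -0.22. Of the enzymes that interconvert serine and glycine, the cytosolic Shmt1 fell from 28.5, 28.6 and 27 FPKM to 14.7, 14.9 and 14 FPKM (-0.9 ± 0.06), and the mitochondrial Shmt2 rose from 47.1, 43 and 43.7 FPKM to 65, 75.4 and 63.3 FPKM (0.59 ± 0.07). Across 27 tested genes of serine, glycine, folate and methionine metabolism, 13 were higher, 8 lower and 6 did not pass (median 0.18). The falls included the nucleotide synthesis gene Tyms (-1.42) and the glycine cleavage gene Gldc (-1.47), from 97.8 to 34.7 FPKM.

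**Figure D2:**
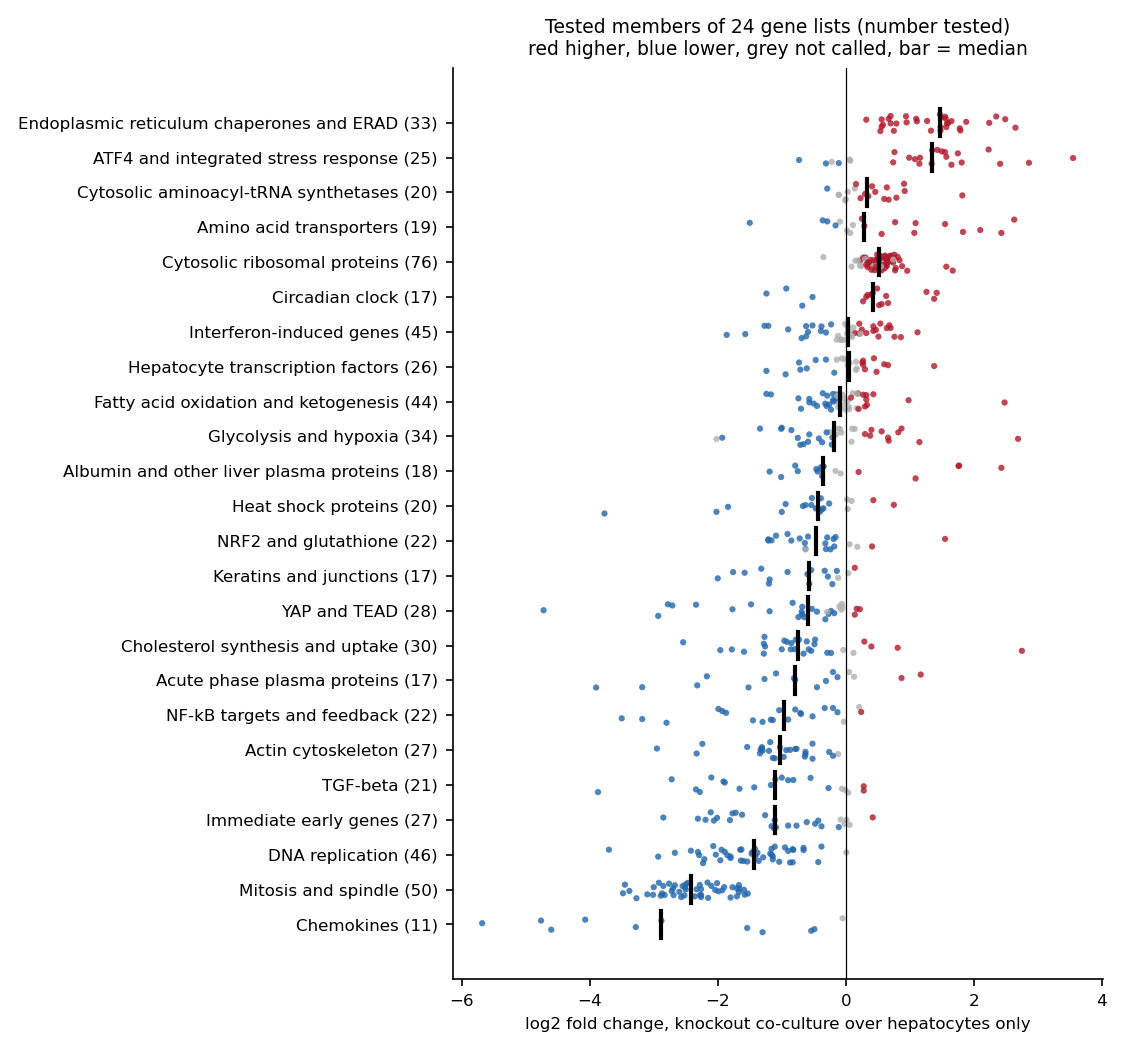
Each point is a tested member of a gene list, placed by its log2 fold change (knockout co-culture over hepatocytes only, x axis), with lists in order along the y axis and a bar at each list's median. Endoplasmic reticulum chaperones lie wholly to the right (median 1.47), and mitosis genes (-2.41) to the left. The 10 chemokines called lower also lie to the left (median of the 11 tested -2.88), and 1 was not called.

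Chemokines showed the largest falls of any list. Of 11 tested, 10 were lower and 1 did not pass, with a median log2 fold change of -2.88. Ccl2 (chromosome 11, 82035571 to 82037453), which draws monocytes, had 868, 873 and 892 FPKM in hepatocytes alone and 16.7, 16.2 and 15.5 FPKM in co-culture (-5.68 ± 0.05, adjusted p = 2.14e-18). Its mean was 54.4-fold lower, the largest fall of all genes tested on the log2 scale. Ccl7, which neighbours it and draws the same cells, fell from 32.7, 40.8 and 37.1 FPKM to 0.308, 0.532 and 0.346 FPKM (-4.76 ± 0.1). Among the neutrophil-attracting ligands of CXCR2, Cxcl1 fell from 79.9, 79.1 and 75.5 FPKM to 2, 2.65 and 2.16 FPKM (-4.6 ± 0.1, adjusted p = 4.36e-14). Cxcl5 fell from 35.4, 37.9 and 38.2 FPKM to 1.43, 1.17 and 1.22 FPKM (-4.07 ± 0.11). No library of either group came near the other in any of these genes. Ppbp, a further ligand, was not tested but had 1.84, 2.43 and 1.76 FPKM alone and 0 in the 3 co-culture libraries, at least 14.3-fold lower when the floor is taken as 3 fragments per library. The receptor genes Cxcr1 and Cxcr2 were listed at 0 apart from 0.0727 FPKM of Cxcr2 in knockout replicate 3. Mif (380 and 367 FPKM) did not pass.

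Genes that NF-kB induces, its own inhibitors among them, were lower as well. Of 22 tested, 19 were lower, 1 higher and 2 did not pass (median -0.97). Tnfaip3, which encodes the deubiquitinase A20 that shuts the pathway off, had 36.9, 37.5 and 36.2 FPKM alone and 2.35, 2.46 and 2.23 FPKM in co-culture (-3.5 ± 0.05, adjusted p = 9.26e-16). Nfkbia, the inhibitor that holds NF-kB in the cytosol, went from 70.7, 66.8 and 64.7 FPKM to 7.59, 9.68 and 9.39 FPKM (-2.8 ± 0.07, adjusted p = 1.77e-13). The means were 15.7- and 7.59-fold lower with no overlap, while the subunit gene Rela fell less, from 126 to 87.5 FPKM (-0.52). The single rise, that of the adaptor gene Traf2 (0.24), was lost without knockout replicate 2 (adjusted p = 0.0618). Csf2, a granulocyte and macrophage growth factor gene, had 3.15, 2.74 and 2.32 FPKM alone and 0 in co-culture, at least 14.4-fold lower on the same floor. Interferon-induced genes did not share this direction. Of 45 tested, 16 were higher, 14 lower and 15 did not pass (median 0.03), or 66.7% called against 61.5% of all tested genes. Ifi47 (-1.86) and Ifit2 (-1.57) moved downward and Usp18 (1.12) and Ifit1 (0.86) upward. Of 17 genes of MHC class I presentation, 10 were lower, 4 higher and 3 did not pass (median -0.48). H2-K1 (-1.32), a member of a family of near-identical genes, and the tapasin gene Tapbp (-1.12), which overlaps Zbtb22 (0.61), were lower. The rises were Calr (1.48) and Pdia3 (1.11), both also in the endoplasmic reticulum list, the peptide transporter gene Tap1 (0.53) and the class I transactivator gene Nlrc5 (0.34).

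The NF-kB consensus was found on either strand of 5 of the 6 chemokine promoters given (83.3%) and of 7 of 18 NF-kB targets (38.9%), against 5.48% of tested genes and 3.9% of promoters. The chemokines were Ccl20, Ccl9, Cxcl1, Cxcl2 and Cxcl10, and Ccl2, Ccl7 and Cxcl5 were without a promoter sequence. The site of Cxcl1 is shown in capitals because it is the called chemokine with the largest fall of those with a match (GRCm38.p6, chr5:90891125-90891244, plus strand).

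Cxcl1: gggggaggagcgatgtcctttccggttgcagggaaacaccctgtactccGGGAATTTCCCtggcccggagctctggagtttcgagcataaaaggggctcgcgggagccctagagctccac

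Among secreted liver proteins, acute phase genes were lower in 13 of 17 cases, higher in 2, and 2 did not pass (median -0.79). Hp, the haemoglobin-binding haptoglobin, had 47.8, 43.3 and 43.4 FPKM alone and 1.66, 2.33 and 2.24 FPKM in co-culture (-3.9 ± 0.12, adjusted p = 1.62e-12). Saa3, a serum amyloid, had 9.03, 9.48 and 9.04 FPKM alone and 0.0378, 0.145 and 0.191 FPKM in co-culture (-3.18). The protease gene Ctsl (0.87) and the pentraxin gene Apcs (1.17) rose. Of 21 complement and coagulation genes, 13 fell and 5 rose (median -0.58). C3, the central complement protein, went from 319, 316 and 321 FPKM to 65.2, 66 and 64.1 FPKM (-2.27 ± 0.03, adjusted p = 4.01e-16). C4b (1.41) moved up, and the rise of the antiplasmin gene Serpinf2 (0.51) was lost without hepatocytes-only replicate 2 (adjusted p = 0.0573). All of these separated without overlap. The counts of members that rose among complement and coagulation genes fell from 5 to 3 without hepatocytes-only replicate 2 or knockout replicate 3.

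Among 18 other liver plasma proteins, 10 were lower, 5 higher and 3 did not pass (median -0.36). Alb, the main plasma protein, had 57.8, 58.4 and 55 FPKM alone and 27.9, 27 and 28.4 FPKM in co-culture (-1.01 ± 0.06, adjusted p = 7.95e-10). Rbp4, the retinol carrier, moved the other way from 182, 182 and 177 FPKM to 614, 631 and 595 FPKM (1.76 ± 0.06, adjusted p = 1.66e-12), so that its mean was 3.41-fold higher while that of albumin was 2.06-fold lower. The protease inhibitor gene Fetub went from a mean of 0.34 to 6.2 FPKM (2.43) and the hyaluronan-binding protein gene Itih2 rose by 1.77. The rise of Agt was small and rested on single libraries, with values under the comparison with wild-type cells below. Hepatokine genes were divided, with 5 higher, 5 lower and 1 not passing of 11. Angptl6, an angiopoietin-like factor, went from 1.85, 0.753 and 1.17 FPKM to 26.2, 27.5 and 27.6 FPKM (3.66 ± 0.14, adjusted p = 1.11e-11), the largest rise of the tested protein-coding genes. It overlaps A230050P20Rik, whose own change was 0.32. Lect2, a chemotactic hepatokine, fell from 13.9 to 0.472 FPKM (-3.34).

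Cell cycle genes were lower almost without exception. Of 46 tested replication genes, 45 were lower and 1 (Pold2, at 18.7 and 18.8 FPKM) did not pass, with a median of -1.44, and all 50 mitosis and spindle genes were lower and at least 2-fold so, with a median of -2.41. Mki67, the marker of cycling cells (chromosome 7, 135689784 to 135716361), had 20, 22.7 and 22.1 FPKM alone and 0.935, 1.1 and 1.03 FPKM in co-culture (-3.48 ± 0.05, adjusted p = 1.44e-15). Rrm2, the S phase subunit of ribonucleotide reductase, went from 43.3, 39.6 and 43.6 FPKM to 2.38, 2.5 and 2.08 FPKM (-3.7 ± 0.07, adjusted p = 9.38e-15). Mcm5, of the replicative helicase, went from 29.7, 30 and 29.4 FPKM to 3.92, 4.06 and 3.55 FPKM (-2.67 ± 0.06, adjusted p = 7.59e-14). Each of the 3 was lower by a factor between 7.73 and 21.1 in the means, with no overlap. The mitotic cyclin gene Ccnb2 (-3.45) and the mitotic kinase gene Plk1 (-3.27), from 23.8, 22.7 and 21.5 FPKM to 1.61, 1.25 and 1.49 FPKM, fell likewise. Of 23 cyclins and cell cycle inhibitors, 15 were lower and 4 higher (median -0.3). The G1/S cyclin gene Ccne1 fell most (-2.28), and the inhibitor genes Cdkn2b, from 16.7 to 44.4 FPKM (1.35), and Cdkn2a (0.58) rose. Targets of p53 had no common direction, with 4 higher, 9 lower and 11 not passing of 24. Their share called was 54.2%, against 61.5% of all tested genes.

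Promoter letters were counted for both cell cycle lists. E2F sites (TTTCCCGC or TTTGGCGC, both strands) were found at 6 of 37 replication genes (16.2%) and at 0 of 41 mitosis genes, against 3.14% of tested genes. The cell cycle homology region TTTGAA was found at 12 of 41 mitosis genes (29.3%) and 5 of 37 replication genes (13.5%), against 12.5%, and CCAAT at 73.2% and 62.2%, against 41.3%. Over all promoters the shares were 1.3% for E2F sites, 16% for TTTGAA and 33.8% for CCAAT. Mcm5 holds the E2F site and Mki67 holds 2 copies of TTTGAA (GRCm38.p6, chr8:75109340-75109459, plus strand, and chr7:135716396-135716515, minus strand), shown because each fell most in its list among the members with that match.

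Mcm5: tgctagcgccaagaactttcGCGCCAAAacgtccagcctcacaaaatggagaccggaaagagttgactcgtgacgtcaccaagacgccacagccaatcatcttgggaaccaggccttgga

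Mki67: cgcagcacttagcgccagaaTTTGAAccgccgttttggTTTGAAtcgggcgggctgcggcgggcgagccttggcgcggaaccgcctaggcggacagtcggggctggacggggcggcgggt

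**Figure D3:**
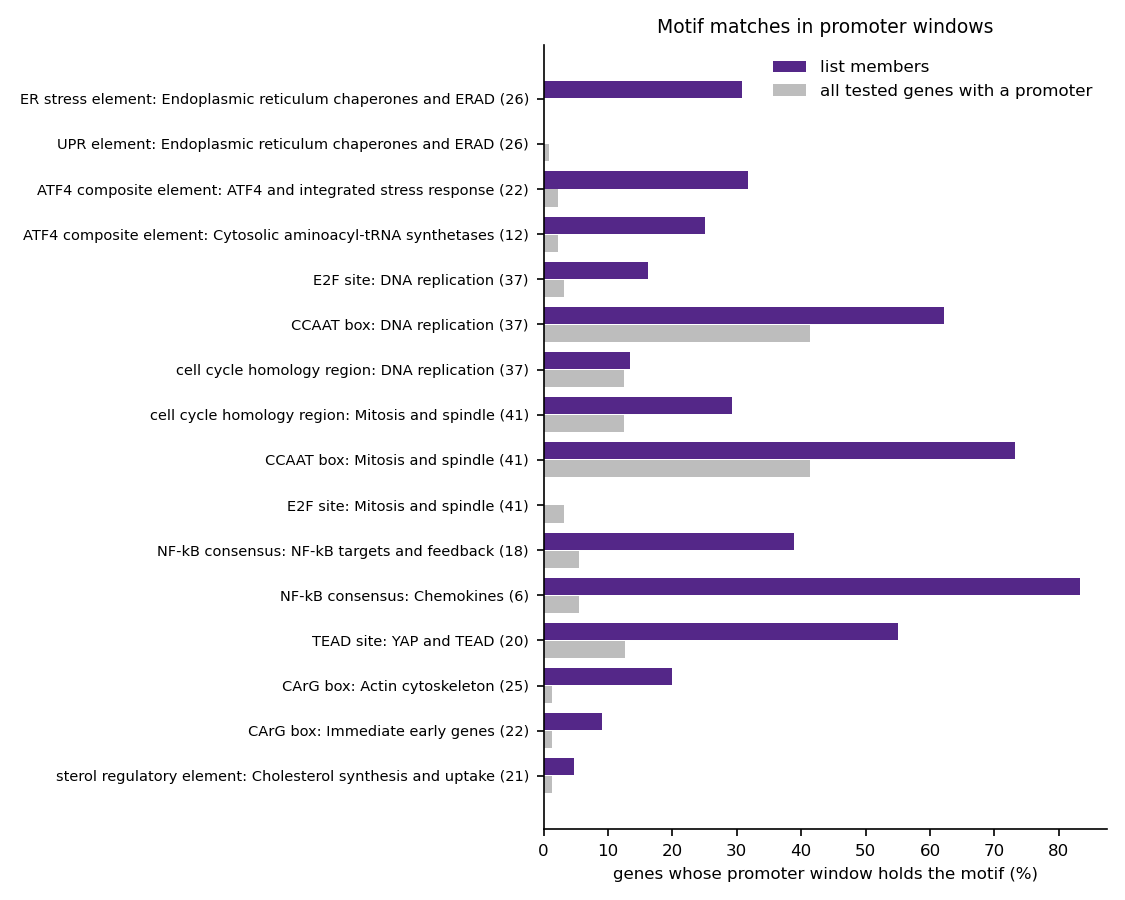
For each list and promoter motif, bars give the percentage of list members (with a RefSeq promoter) and of all 8319 tested genes with a promoter that hold the motif in the 250 bases before the start. The widest gaps are those of the NF-kB consensus at chemokines (83.3% of 6 promoters against 5.48%) and the TEAD site at YAP and TEAD genes (55.0% against 12.7%). A match is a description of the letters only. Members were counted whether or not they changed, and several lists are named for the factor searched, so the gaps are no result of the co-culture.

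**Figure D4:**
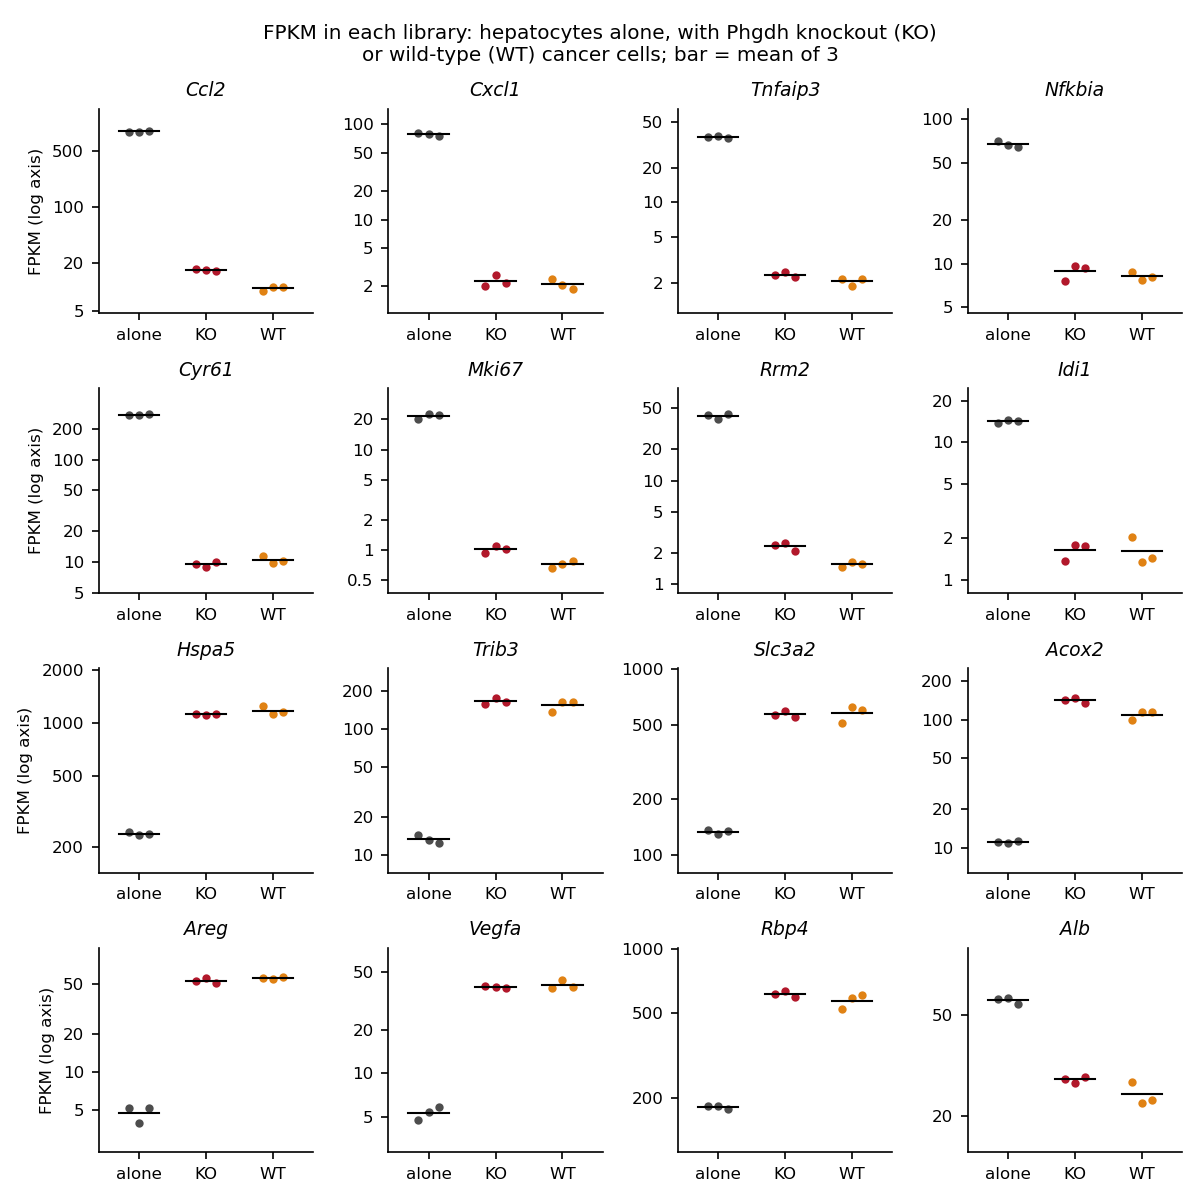
Each point is the FPKM of 1 library (log axis) for hepatocytes alone, with knockout (KO) and with wild-type (WT) cancer cells, 3 libraries each, and the bar is their mean. In every panel the KO libraries lie on the same side of hepatocytes alone as the WT libraries, for Ccl2 at 15.5 to 16.7 FPKM against 868 to 892 FPKM alone.

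Genes that spread cells use and that mechanical tension and serum induce were lower. Of 27 tested actin cytoskeleton genes, 26 were lower and 1 (Vasp) did not pass, with a median of -1.03. Actg1, cytoplasmic gamma actin, had 863, 861 and 849 FPKM alone and 166, 160 and 183 FPKM in co-culture (-2.33 ± 0.07, adjusted p = 6.06e-13). The calponin gene Cnn2 went from 102, 100 and 101 FPKM to 11.6, 13.3 and 11.8 FPKM (-2.95). Beta actin, Actb, went from 1100, 1150 and 1120 FPKM to 390, 389 and 379 FPKM (-1.54), so that a gene often used as a reference was not steady here. Of 28 genes around YAP and TEAD, 20 were lower, 3 higher and 5 did not pass (median -0.59). Cyr61, a matricellular target of YAP, had 273, 274 and 278 FPKM alone and 9.56, 8.87 and 10 FPKM in co-culture (-4.72 ± 0.05, adjusted p = 8.53e-17). Ankrd1 went from 62.3, 58.8 and 64.4 FPKM to 7.45, 7.08 and 7.15 FPKM (-2.93 ± 0.05, adjusted p = 1.68e-15). Both targets stood clear of overlap, whereas Yap1 itself fell by only 0.32 and Tead4 did not pass (16.2 and 15.4 FPKM). The count of 3 rises in that list became 1 without hepatocytes-only replicate 1 or 3 or knockout replicate 1.

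Of 21 TGF-beta genes, 16 were lower, 2 higher and 3 did not pass (median -1.1), with the inhibitor of differentiation Id3 (-2.72) and the matrix protein gene Thbs1 (-2.34) among the falls and the ligand gene Tgfb1 at 11.4 and 11.7 FPKM not passing. Matrix and integrin genes were lower in 20 of 28 cases and higher in 4 (median -0.38). Spp1, osteopontin, fell from 1020, 1010 and 1020 FPKM to 313, 313 and 330 FPKM (-1.67), and the laminin gene Lama5 (1.12) and the integrin gene Itgb5 (1.28) rose. Keratins and junction genes were lower in 14 of 17 cases (median -0.57), led by the biliary keratin genes Krt19, from 96.9 to 23.5 FPKM (-2), and Krt7 (-1.76). The 10 cholangiocyte markers summed to 1250 to 1270 FPKM alone and 451 to 470 FPKM in co-culture, most of it Spp1. Of the 6 tested, 4 were lower and 2 higher, where 61.5% of all tested genes changed. Epcam, which defines biliary cells, was near 0 in both groups (0.054 and 0.0712 FPKM), and the part of such cells in these falls was not tested. Cryab, a small heat shock protein bound to filaments, fell from 132, 125 and 132 FPKM to 8.19, 8.97 and 8.57 FPKM (-3.77), and of the 20 tested heat shock genes 15 were lower, 3 did not pass and 2, the mitochondrial Hspa9 (0.75, overlapping Gm22200 at 1.24) and Hspe1 (0.43), were higher. Scaling without mitochondrial and the 50 most abundant genes made these 2 rises 4.

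The TEAD site GGAATG was found at 11 of 20 YAP and TEAD promoters (55.0%), against 12.7% of tested genes and 12.6% of promoters, and the CArG box of serum response factor at 5 of 25 actin promoters (20%) and 2 of 22 immediate early promoters (9.09%), against 1.38% and 1.47%. The CArG members among actin genes are Actg1, Cnn2, Myl9, Vcl and Fhl2. Ankrd1 and Cnn2 fell most among the members with a match (GRCm38.p6, chr19:36119942-36120061, minus strand, and chr10:79988480-79988599, plus strand), and capitals mark the matches.

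Ankrd1: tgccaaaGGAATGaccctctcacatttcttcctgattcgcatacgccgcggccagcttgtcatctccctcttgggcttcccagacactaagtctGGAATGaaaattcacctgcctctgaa

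Cnn2: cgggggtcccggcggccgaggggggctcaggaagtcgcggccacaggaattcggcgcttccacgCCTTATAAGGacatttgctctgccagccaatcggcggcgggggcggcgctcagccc

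Immediate early genes, which respond within minutes to growth factors, were lower in 22 of 27 cases, with 1 higher (Btg1, 0.42) and 4 not passing (median -1.11). Zfp36, which destabilizes inflammatory messages, fell by 2.85, and Egr1 went from 180, 179 and 174 FPKM to 36.9, 38.3 and 39.8 FPKM (-2.19 ± 0.03, adjusted p = 1.64e-15). The phosphatase gene Dusp1, which switches off MAP kinases, fell from 50.8 to 4.94 FPKM (-3.13). Ligand and receptor genes of the EGF family were divided, with 3 higher, 5 lower and 1 not passing of 9 tested (median -0.12), and the ligand genes Areg, Btc and Ereg (0.92, overlapping Gm19610 at 1.14) were the 3 rises. Areg, amphiregulin, had 5.11, 3.92 and 5.15 FPKM alone and 52.3, 55.2 and 50.5 FPKM in co-culture (3.24 ± 0.08, adjusted p = 7.27e-14). Btc, betacellulin, went from 2.6, 2.81 and 2.72 FPKM to 26.2, 24.3 and 24.3 FPKM (2.8 ± 0.08, adjusted p = 3.59e-13). Outside that family Vegfa, the main endothelial growth factor, went from 4.74, 5.35 and 5.8 FPKM to 40.2, 39.3 and 38.9 FPKM (2.69 ± 0.06, adjusted p = 4.5e-14). Areg, Btc and Vegfa separated without overlap. Of the EGF family, Hbegf fell by 1.08 and the receptor gene Egfr by 0.42. Insulin-like growth factor binding proteins were divided as well (7 higher and 5 lower of 13), with Igfbp1 (1.87) and Igfbp3 (1.45) higher and the abundant Igfbp7 lower, from 971, 877 and 887 FPKM to 221, 230 and 249 FPKM (-1.96), and Igfbp7 overlaps Polr2b (-0.41).

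In lipid metabolism, cholesterol synthesis and uptake genes were lower in 24 of 30 cases, higher in 4, and 2 did not pass (median -0.75). Idi1, which isomerizes the isoprenoid unit, had 13.8, 14.6 and 14.4 FPKM alone and 1.36, 1.78 and 1.77 FPKM in co-culture (-2.54 ± 0.1, adjusted p = 9.94e-12). The genes that esterify cholesterol moved up, Soat2 from 1.46, 1.19 and 1.22 FPKM to 12.9, 15.1 and 15.4 FPKM (2.75 ± 0.06, adjusted p = 5.64e-14) and Soat1 by 0.81. Idi1 and Soat2 separated without overlap, and the 4 rises of the list are Soat2, Soat1, Scap (0.4) and the exporter gene Abca1 (0.29). The sterol regulatory element TCACNCCAC was found at 1 of 21 promoters of the list (4.76%), that of Hmgcs1, against 1.35% of tested genes and 1.05% of promoters. Fatty acid synthesis and storage genes were lower in 16 of 30 cases and higher in 5 (median -0.2), led by the desaturase gene Fads2, from 103, 107 and 104 FPKM to 15.8, 14.5 and 14.6 FPKM (-2.73). Fasn (33.3 and 32.3 FPKM) and Acaca did not pass. Fatty acid oxidation genes had no common direction, with 11 higher, 19 lower and 14 not passing of 44 (median -0.09). Acot2, a mitochondrial thioesterase gene, rose from 3.69 to 25.2 FPKM (2.48), and Acadl fell from 117 to 48.9 FPKM (-1.24).

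Bile acid synthesis and export was higher in 9 of 15 cases and lower in 3 (median 0.15). Acox2, the peroxisomal oxidase of bile acid side chains (chromosome 14, 8225511 to 8259353), had 11, 10.9 and 11.2 FPKM alone and 142, 148 and 136 FPKM in co-culture (3.57 ± 0.06, adjusted p = 1.86e-15), a mean 12.8-fold higher. Cyp27a1, which hydroxylates the side chain, rose from 7.51 to 19.6 FPKM (1.28), the bile acid receptor gene Nr1h4 fell from 37 to 15.1 FPKM (-1.24), and Cyp7a1, the rate-limiting enzyme of the classical route, was listed at 0 throughout. Of 17 tested cytochrome P450 genes, 7 were higher and 3 lower, or 58.8% called against 61.5% of all tested genes. Cyp3a13 (1.93), which overlaps Gm15502 (1.58), and Cyp1a1 (1.49) moved upward and Cyp51 (-1.27), a cholesterol enzyme, downward. Conjugation enzymes were lower in 15 of 31 cases and higher in 6 (median -0.29), or 67.7% called against the same 61.5%. The sulfotransferase gene Sult1a1 fell most, from 8.09 to 0.459 FPKM (-2.65), and the glucuronosyltransferase gene Ugt2b34 rose from 2.36 to 13.2 FPKM (2.07). NRF2 and glutathione genes were lower in 17 of 22 cases, higher in 2, and 3 did not pass (median -0.46). Glutathione reductase Gsr (-1.21) was among the falls, and the rises were Slc7a11, from 0.573 to 3.6 FPKM (1.55), and Gstp1 (0.41). Factors that set hepatocyte identity were spread evenly, with 9 higher, 8 lower and 9 not passing of 26 (median 0.05). Their share called, 65.4%, was near that of all tested genes. Hnf4a was 46.6 and 41 FPKM (-0.18).

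Sugar metabolism genes had no common direction. Of 34 glycolysis and hypoxia genes, 15 were lower, 10 higher and 9 did not pass (median -0.18). The enolase gene Eno1 fell from 150 to 58.7 FPKM (-1.34) and the oxygen sensor gene Egln3 by 1.93, while Vegfa and Ndrg1 (1.15) were higher. Gapdh was read at 1.97, 19.7 and 53.2 FPKM alone and at 0.93, 1.24 and 10.6 FPKM in co-culture, a spread that left it without a call (adjusted p = 0.195), and it has many pseudogene copies that can share its reads. In glycogen metabolism, Stbd1, which tethers glycogen to membranes, went from a mean of 0.543 to 13 FPKM (3.18 ± 0.07, adjusted p = 3.97e-14). Gluconeogenesis genes were split 7 to 6 of 21, or 61.9% called against 61.5% of all tested genes. G6pc, Pck1 and Fbp1 were near 0 in both groups.

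Genes for cytosolic ribosomal proteins were mostly higher by a small amount. Of 76 tested, 58 were higher and 18 did not pass (median 0.52), and the rises numbered 53 to 65 under the alternatives run. Rplp1, of the ribosomal stalk, had 3580, 3040 and 3180 FPKM alone and 5220, 5890 and 5470 FPKM in co-culture (0.76 ± 0.09, adjusted p = 5.48e-06), without overlap. Many of these genes have processed copies, so single members such as Rps27a (1.67) and Rpl17 (1.57) are uncertain. Clock genes were higher in 13 of 17 cases and lower in 4 (median 0.42), with Dbp (1.26), which overlaps Sphk2 (0.75), and Ciart (1.42) upward and the repressor gene Bhlhe40 (-1.24) downward. Lysosome and autophagy genes had 15 higher and 10 lower of 39 (median 0.06), or 64.1% called against 61.5% of all tested genes. The cholesterol transporter gene Npc1 (1.21) and the autophagy receptor gene Sqstm1, from 275 to 587 FPKM (1.09), rose most. Of 13 mitochondrially encoded messages, 1 was higher, 2 lower and 10 did not pass (median -0.01). Its 2 falls, mt-Nd1 and mt-Nd2, were lost without hepatocytes-only replicate 2 (adjusted p = 0.0967 and 0.114) or 3 (0.0771 and 0.0704) or knockout replicate 2 (0.13 and 0.18), and mitochondrial genes took 3.411 to 3.791% of fragments alone and 3.246 to 3.802% in co-culture.

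Some genes were near 0 in 1 of both groups. In hepatocytes alone 21 genes had a mean of at least 1 FPKM and were under 0.1 FPKM in every co-culture library, 14 of them protein coding, and in co-culture 20 genes did the reverse, 5 of them protein coding and the others chiefly small RNAs (7 miRNA, 4 snoRNA and 3 snRNA genes) that rest on 0 to 7 fragments in each co-culture library. Iqgap3, a scaffold of dividing cells, fell from a mean of 4.02 to 0.0548 FPKM, the latter from 38 fragments over the 3 co-culture libraries, and Ubd, a ubiquitin-like modifier induced by inflammation, from 1.97 FPKM to 0, at least 12.1-fold lower. Try5, a trypsin gene of a family of near-identical copies and thus uncertain, had 0 in hepatocytes alone and 4.42, 7.25 and 5.03 FPKM in co-culture, at least 29.5-fold higher. Cox6a2, a muscle form of a respiratory subunit, had 0 alone and 1.59, 2.86 and 2.85 FPKM in co-culture, at least 9.72-fold higher. A further 457 genes were at 1 FPKM or more in 1 of both groups but under the mean of all 16 libraries that testing required, 265 of them higher in hepatocytes alone, and 31833 genes were at 0 in all 6 libraries.

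Whether these changes depended on the Phgdh status of the cancer cells was read from the co-culture with wild-type cells. Both responses are measured against the same 3 libraries of hepatocytes alone, so their fold changes share those libraries, and the difference between them was tested directly as knockout against wild-type co-culture. Of the 11395 genes, 341 differed (2.99%), 188 higher with knockout cells (1.65%) and 153 lower (1.34%), and 2 differed at least 2-fold. Of the 7011 genes changed by knockout cells, 294 (4.19%) differed from wild type, and of the 978 changed at least 2-fold 103 did (10.5%), with 47 of these nearer to hepatocytes alone beside knockout cells and 56 farther. The count of 341 was not steady. It was 157 to 197 without a knockout replicate, 199 to 398 without a wild-type replicate (199 without replicate 3), and 17 when only the 6 co-culture libraries without inhibitor set the spread. Those 17 genes were Egr1, Ttr, Ptprn, Agt, C3, Igfbp3, Zfp57, Fosb, Ccl2, Smoc1, Slc2a2, Fbln2, Acsbg1, Tnfrsf21, F2rl1, Fos and Rras2. Any other gene named below as differing between the co-cultures lost that call in this 6-library fit.

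Of the 27 immediate early genes, 10 had lower levels with knockout than with wild-type cells. Only Egr1, Fosb and Fos of these kept the call in the 6-library fit. Egr1 had 36.9, 38.3 and 39.8 FPKM with knockout cells and 71.3, 72.8 and 72.1 FPKM with wild-type cells, against 174 to 180 FPKM alone (difference -0.89 ± 0.03, adjusted p = 3.31e-09). Fosb had 1.34, 1.25 and 1.1 FPKM with knockout cells, 3.46, 4.88 and 3.97 FPKM with wild-type cells and 6.05 to 6.61 FPKM alone (difference -1.19 ± 0.09, adjusted p = 5.82e-06). In both genes the 3 groups were in the same order with no overlap. The other 8 were Ier3, Fos, Btg2, Jun, Ier2, Rhob, Fosl1 and Nr4a1, with differences between -0.51 and -0.27. Another 4 feedback genes of the MAP kinase pathway were lower too, Phlda1, Spry2, Etv4 and Dusp6, and Errfi1 was higher.

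Some plasma protein genes differed in level between the co-cultures. Of 18 tested, 5 were higher than with wild-type cells (Ttr, Agt, Pzp, Apoh and Vtn) and 1 was lower (Serpina1a), and of 17 acute phase genes 4 were higher (Cp, Lbp, Crp and Apcs). Only Ttr and Agt of these kept the call in the 6-library fit. Apcs was farther from hepatocytes alone with knockout cells (means of 11.6 FPKM alone, 27.2 FPKM with knockout and 17.9 FPKM with wild-type cells). Ttr, the thyroid hormone carrier, had 88.1, 89 and 86 FPKM alone, 47.1, 53 and 51.2 FPKM with knockout cells and 23.8, 25.1 and 22.9 FPKM with wild-type cells (difference 1.04 ± 0.06, adjusted p = 2.79e-07). The 3 groups did not overlap. Agt, angiotensinogen, had 11.6, 9.51 and 9.72 FPKM alone, 12.2, 11.9 and 11.5 FPKM with knockout cells and 5.55, 6.08 and 6.33 FPKM with wild-type cells. Its difference between the co-cultures was 0.88 ± 0.08 (adjusted p = 1.58e-05), whereas its rise over hepatocytes alone (0.2 ± 0.08) was lost when hepatocytes-only replicate 2 (adjusted p = 0.143) or 3 (0.122), or knockout replicate 1 (0.102) or 2 (0.0762), was left out. C3 had 45.7, 44.9 and 43.6 FPKM with wild-type cells, below the 64.1 to 66 FPKM with knockout cells (difference 0.53 ± 0.03, adjusted p = 2.79e-07). Ccl2 had 8.73, 9.92 and 10 FPKM with wild-type cells, below the 15.5 to 16.7 FPKM with knockout cells (difference 0.7 ± 0.05, adjusted p = 1.24e-06), both far below hepatocytes alone.

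**Figure D5:**
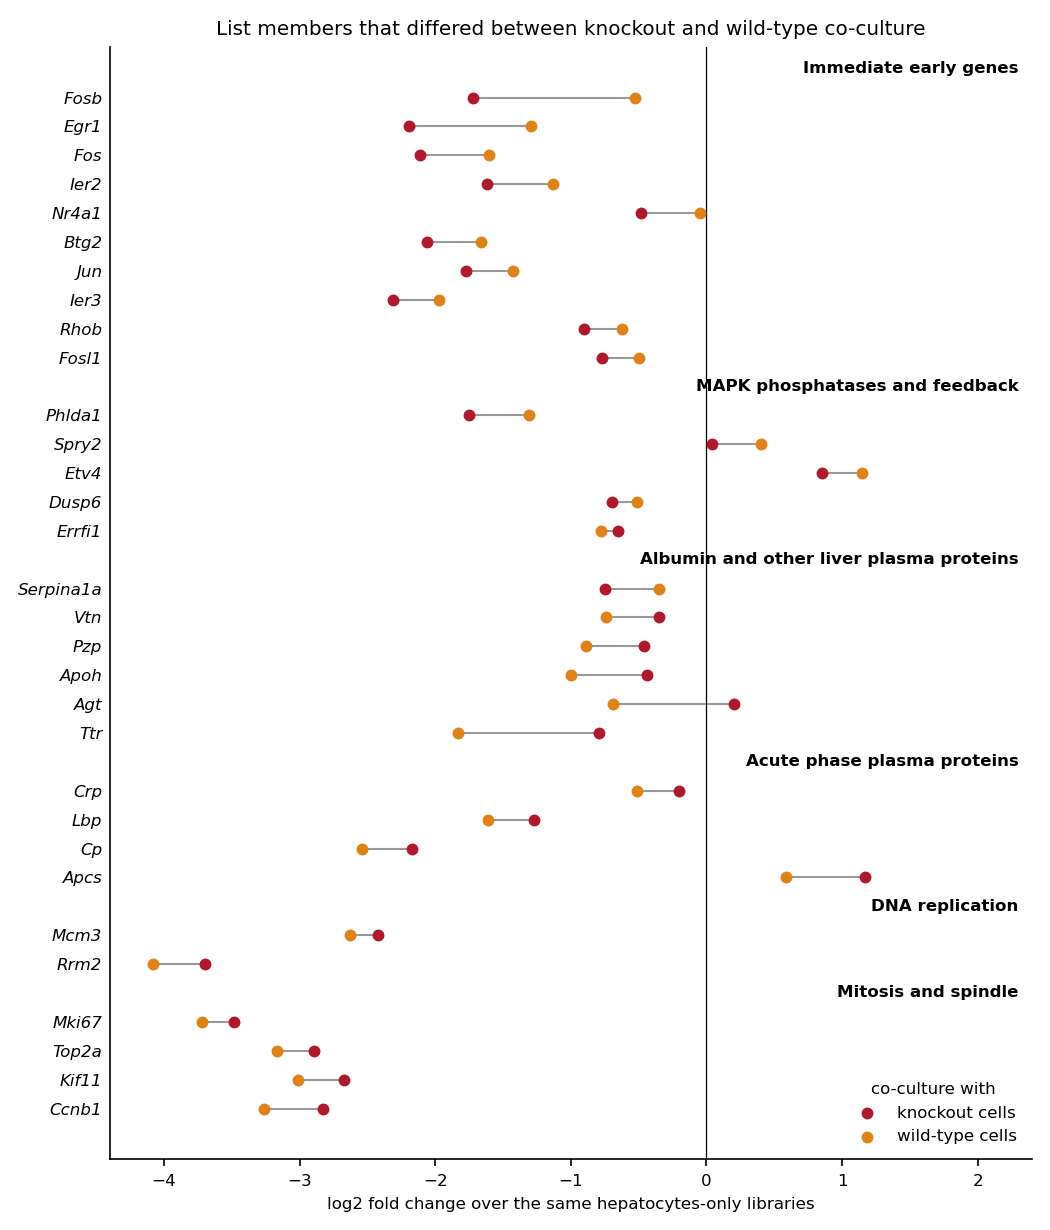
For members of the 6 lists shown that differed between the co-cultures, the x axis gives the log2 fold change over the same hepatocytes-only libraries with knockout (red) and wild-type (orange) cancer cells, joined by a line and grouped by list. Immediate early genes have the red point to the left, Egr1 at -2.19 and -1.29, and most plasma protein genes have it to the right, Ttr at -0.79 and -1.83.

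Cell cycle genes fell with both kinds of cancer cells, and slightly less with knockout cells in 2 of 46 replication genes (Rrm2 and Mcm3) and 4 of 50 mitosis genes (Mki67, Top2a, Kif11 and Ccnb1). Mki67 differed by 0.23 (adjusted p = 0.0298) and Rrm2 by 0.38 (adjusted p = 0.00965), small beside falls of 3.48 and 3.7 from hepatocytes alone. Of the 33 endoplasmic reticulum genes, 1 differed (Pdia4, -0.15), and of the 25 ATF4 genes 1 (Gdf15, -0.41). Of the 27 genes of serine, glycine and folate metabolism, 0 differed by limma, against 2 higher and 6 lower at an unadjusted p under 0.05 and 1 lower by voom. Acox2 was higher with knockout cells (99, 115 and 115 FPKM with wild-type cells, difference 0.38, adjusted p = 0.00231), and Btc was lower (35.7, 31.3 and 31.5 FPKM with wild-type cells, difference -0.38, adjusted p = 0.0147). None of these cell cycle, stress or single genes kept the call in the 6-library fit. A gene that misses the threshold here is not shown to respond alike to both kinds of cells.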

How the data were processed

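RNA was taken from mouse hepatocytes with the RNeasy mini kit and sequenced by Novogene, per the labels' protocols. HISAT2 and the builds GRCm38 and mm10 are named in the submitters' processing notes. No counting tool, annotation release or strand setting is given in the sources used here, so overlapping genes cannot be told apart. The authors deposited FPKM per gene, and gene positions are those of the deposited table. Values were whole multiples of 1 fragment in each library (100% within a tolerance of 0.1), which gave depths of 16395464 to 21188992 fragments in the 6 libraries. Dates stood in place of 27 gene symbols.

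Groups were taken from the sample labels. The log2 of FPKM plus a pseudocount of 1 was fitted with limma 3.58.1 (R 4.3.3, trend), 1 mean per group over all 16 libraries (11 residual degrees of freedom), for 11395 genes with a mean of at least 1 FPKM, with Benjamini-Hochberg adjustment and a threshold of 0.05. The 16 include the co-cultures with the CXCR2 inhibitor. On simulated data for this design the fit recovered 97% of 2-fold and 90% of 1.41-fold changes, and 11 of all calls made, or 5.56%, were false. The simulation changed 100 of 11395 genes at each fold, in the knockout co-culture alone and at a fixed dispersion. In the data 61.5% of genes were called, so these rates do not carry over to the real comparison. Tables were handled with Python 3.11.15 and pandas 2.3.3. The 18 alternatives changed the scaling, pseudocount, filter, test (voom on recovered fragments), libraries fitted and replicate block, or left out 1 library.

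The comparison and the 49 gene lists were chosen with earlier results of these data known. Named genes were the 15 largest rises and falls without overlap and the 5 largest each way among the 200 most abundant genes. Per list they were up to 4 called members by absolute change and up to 2 in the direction that fewer members took. Also named were the 5 largest noncoding changes each way, the 10 largest changes from or to near 0, and the 5 largest differences each way from wild-type co-culture. Members that did not pass may be named with their values. Dnajc10, Aars, Vldlr, Rela, Usp18, Ifit1, Tap1, Nlrc5, Yap1, Tyms, Egfr, Scap, Abca1, Hnf4a, Rplp1, the snoRNA host genes, the promoter examples and list members that differed between co-cultures were named after their values were seen. Promoters are RefSeq windows (GRCm38.p6), matched by symbol for 8319 tested genes.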

Additional observations from a re-analysis of the deposited data

Results flagged for a closer look

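The response to knockout cancer cells differed from that to wild-type cancer cells for 341 genes, by the limma test of knockout against wild-type co-culture. Beside Egr1 (-0.89), Fosb (-1.19), Ttr (1.04) and Agt (0.88), whose values stand above, 6 further genes were among the largest differences. Ptprn, a secretory granule protein gene, had 24.9, 26.3 and 25.8 FPKM with knockout cells and 47.3, 52.7 and 48.6 FPKM with wild-type cells (-0.92). It was thus higher than alone (13.7 to 15.4 FPKM) in both. Slc2a2, the hepatocyte glucose transporter, differed by 0.79, and the matrix protein gene Smoc1 by 0.73. The chemokine gene Cxcl17 (0.77), R3hdml (-0.65) and Sprr1a (-0.68), an epithelial envelope protein gene, did not keep the difference when only the 6 co-culture libraries set the spread (adjusted p = 0.298, 0.225 and 0.282). The cause of these differences was not tested.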

How the results depend on the processing

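Of 270 values of named genes, 254 kept their direction and their side of the threshold in all 18 alternatives, and 0 reversed. Against hepatocytes alone the number of changed genes was 6951 to 7215 over the scalings and voom, 7564 of 27086 without a filter, 5026 of 7586 with a mean of 5 FPKM, and 6469 to 7344 with a library left out. The 341 differences from wild-type co-culture (188 higher, 153 lower) became 17 (7 and 10) when only the 6 libraries were fitted, 265 (116 higher) under scaling without mitochondrial and the most abundant genes, 233 (124 higher) without a filter, and 157 to 398 (78 to 227 higher, 74 to 171 lower) with a library left out. Without knockout replicate 1, 2 or 3 they were 175, 197 and 157, and without wild-type replicate 3 they were 199. The same replicate numbers did not pair the samples (correlations of -0.189, -0.066 and -0.091 between hepatocytes alone and knockout co-culture), and with a replicate block the counts were 6996 and 263. Of 98 list counts, 69 stayed within 1.5 times in every alternative; most others shrank under the mean of 5 FPKM, which tests fewer genes. Low genes are limited by depth, since a fragment in 1 kilobase is worth up to 0.0627 FPKM.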

Other observations

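Host genes of small nucleolar RNAs, whose spliced messages are degraded when translated, were looked at after their values were seen. Of 10 tested, 9 were higher in knockout co-culture (median log2 fold change 0.86), with Snhg12 at 2.05 and Gas5 at 1.57. By biotype, antisense genes were higher in 31 and lower in 5 of 83 cases and lincRNA genes in 35 and 22 of 122, against 3210 and 3383 of 10226 protein-coding genes. The share of genes called rose with the level, from 43.0% under 1 FPKM to 82.7% over 500 FPKM.

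Single genes outside the groups above were among the largest changes. Cdsn, a desmosomal adhesion protein gene, rose from 1.81 to 26.1 FPKM (3.28), the aldose reductase relative Akr1b7 from 0.882 to 16.4 FPKM (3.21) and Reep6, which shapes membranes of the endoplasmic reticulum, from 4.05 to 41.4 FPKM (3.07). AW112010, a noncoding gene by the deposited table, fell from 37.9 to 2.69 FPKM (-3.4), and the calcium-binding protein gene S100a11 from 937 to 278 FPKM (-1.75).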
